A study of Sus scrofa with 2 samples.

Results

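The miR-200 family is a group of epithelial miRNAs whose members are made from a pair of gene clusters, miR-200b, miR-200a and miR-429 in one and miR-200c and miR-141 in the other. These miRNAs hold cells in the epithelial state by repressing ZEB1 and ZEB2, transcription factors that shut down E-cadherin, the adhesion protein of epithelial junctions. In the pituitary, miR-200b and miR-429 are known from mice to be needed for the release of luteinizing hormone and for ovulation, again through ZEB1. The unrelated miR-205 acts on the same ZEB factors, and miR-203 restrains the growth of stratified epithelium. The anterior pituitary itself arises from an epithelium, Rathke's pouch, and its hormone cells keep an epithelial character.

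Probes were taken by name from the array of 355 probes: Y-76 (miR-200a), Y-77 (miR-200c), and each porcine miRBase probe named for miR-141, miR-200, miR-203, miR-205 or miR-429. This gave 4 of the 355 probes. They were the added probes Y-76 and Y-77, designed from the sequences of other species, and the miRBase probes ssc-miR-205 and ssc-miR-429. No miRBase probe matched miR-141, miR-200 or miR-203, so miR-200b and miR-203 are not analysed here. Y-75, which the study lists as miR-141, lies outside this choice. It is described only because it carries the same seed as Y-76.

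Total RNA came from the dissected anterior pituitary of female piglets aged 20 days, with no treatment. Bama minipigs, a small Chinese breed, gave 1 pool of 3 animals, and Landrace pigs, a large commercial breed, gave the other pool of 3. Each pool was hybridized to 1 array, so the spread between pigs is unknown, no test between the breeds was possible, and every difference below describes this pair of arrays. The median signal over the 355 probes was 114 for the Bama minipig pool and 95.1 for the Landrace pool. Pooled tissue cannot tell fewer cells of a type from less RNA per cell.

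The mature sequences are shown because the seed, bases 2 to 8, sets which messengers a miRNA can pair with, and because near-identical probes bear on how far each signal belongs to 1 miRNA. They are written 5′ to 3′ as RNA, with the seed in capitals.
Y-77 (miR-200c): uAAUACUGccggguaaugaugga
ssc-miR-429: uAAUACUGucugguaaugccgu
Y-76 (miR-200a): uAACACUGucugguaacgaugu
Y-75 (miR-141, not a member): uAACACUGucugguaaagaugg
ssc-miR-205: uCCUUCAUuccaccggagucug

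The 4 members carried 3 seeds. Y-77 and ssc-miR-429 shared AAUACUG, while Y-76 and Y-75 shared AACACUG. Against ssc-miR-429, the change in the seed of Y-76 is U4C, with positions counted from 1 at the 5′ end and the base of ssc-miR-429 written first. The seed of ssc-miR-205, CCUUCAU, was found in no other probe of the array. Within the miR-200 family the sequences were alike well beyond the seed. Y-75 and Y-76 had the same base at 20 of 22 positions and differed only by A17C and G22U, the base of Y-75 being given first. ssc-miR-429 and Y-76, whose seeds differ, were identical at 18 of 22 positions, and ssc-miR-429 and Y-77, whose seeds are the same, at 17 of 22. The nearest probe outside this family was 8 or 9 edits away from each of Y-75, Y-76, Y-77 and ssc-miR-429, and the nearest probe to ssc-miR-205 was 8 edits away. How much of the signal of each family probe came from its relatives was not tested.

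The study's list of added probes gives Y-75 and Y-76 one and the same precursor of 89 bases. The sequence of Y-75 lay whole in that precursor, from base 57 to 78. That of Y-76 did not, and its closest match was the same stretch, with 2 mismatches. Y-77 lay whole in its own listed precursor of 88 bases, from base 55 to 77. The precursor listed for Y-76 thus holds the mature sequence of the Y-75 probe and not its own. In the RefSeq gene table of Sscrofa11.1, 2 of the 4 members had a gene under their name. MIR429 lay between the coding genes LOC110261078 and TTLL10. MIR205 lay inside the long non-coding RNA gene LOC102159171, between the coding genes CAMK1G and PLXNA2. No gene was found under the names of miR-200a, miR-200c or miR-141, so their clusters could not be read from it.

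With the deposited values, signals of the 3 miR-200 family members differed by at most 1.25-fold between the breeds. None of the 4 members differed by 2-fold or more. Y-75 (miR-141), which is not among the members, is given separately below. Y-77 (miR-200c) measured 16160 in the Bama minipig pool against 16565 in the Landrace pool, and its log2 ratio of Bama over Landrace was -0.036. The pools thus differed by 1.03-fold for this probe. Y-76 (miR-200a) measured 7906 against 8688, with a log2 ratio of -0.14 that turned to 0.017 after quantile normalization. For ssc-miR-429, the signals were 2386 and 2984. Its log2 ratio of -0.32 was the one farthest from 0 among the members, and the Bama minipig signal was 79.9% of that in Landrace pigs. The 3 miR-200 family members therefore all had the lower signal in Bama minipigs, by 1.03-fold to 1.25-fold, except Y-76 after quantile normalization.

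**Figure D1:**
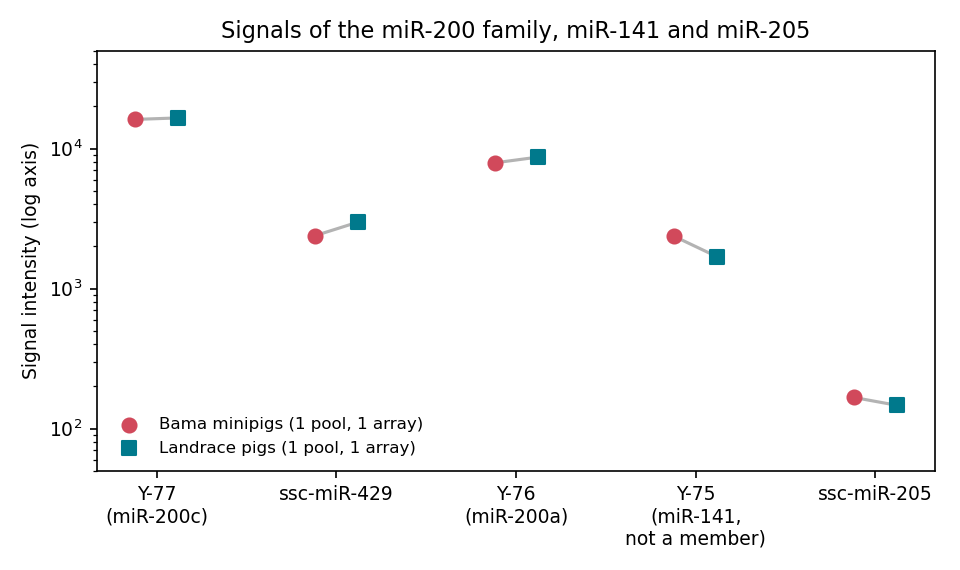
Signal intensity (log axis) of the 4 members and of Y-75 on the Bama minipig array (circles) and the Landrace array (squares), 1 array each, with a line joining the signals of a probe. The signals of Y-77, Y-76 and ssc-miR-429 lie slightly lower in Bama minipigs, and those of Y-75 and ssc-miR-205 slightly higher. Signals of different probes depend on how well each probe binds and are not to be ranked.

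The miRNA that stands outside the family, ssc-miR-205, measured 167 in the Bama minipig pool against 147 in the Landrace pool, a difference of 20.2 signal units. Its log2 ratio was 0.19 with the deposited values. The sign did not hold, since it became -0.12 after quantile normalization, -0.078 with the medians of all probes set equal, -0.034 after cyclic loess and -0.0014 with the 75th percentiles set equal. Background readings and spot values are not part of the table used, so whether these low signals stood above background is not judged here.

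Y-75 (miR-141) measured 2360 against 1685 in the same order, which gave a log2 ratio of 0.49. It was the only probe with a miR-200 family seed whose signal was higher in Bama minipigs, by 1.40-fold, apart from Y-76 after quantile normalization. No probe with one of the 3 seeds passed 2-fold.

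These sizes are read against the rest of the array, where the share of probes past 2-fold depended on the signal. Over all 355 probes, 34.6% differed by 2-fold or more in either direction, against 0 of the 4 members. Most of those probes had very low signals. The share was 23.4% of the 77 probes with a mean signal above 100 up to 1000, the class of ssc-miR-205. It was 14.1% of the 85 probes above 1000 up to 10000, the class of Y-76 and ssc-miR-429, and 0% of the 20 probes above 10000, the class of Y-77. With shares this low, a count of 0 among 4 probes does not set the members apart from probes of similar signal.

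The size of each log2 ratio, regardless of sign, was also placed within its class. For ssc-miR-429, 43 of the 85 probes of its class had a smaller size, which puts it in the middle. The size was smaller in 25 of the 85 for Y-76, in 17 of the 77 for ssc-miR-205 and in 4 of the 20 for Y-77. Y-75, in the class of Y-76, lay higher, with 58 of the 85 probes below it. The median size over the members was 0.16, beside 0.29 over the 85 probes, 0.45 over the 77 and 0.073 over the 20. The members' median log2 ratio was -0.086 and that of all 355 probes was 0.031.

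**Figure D2:**
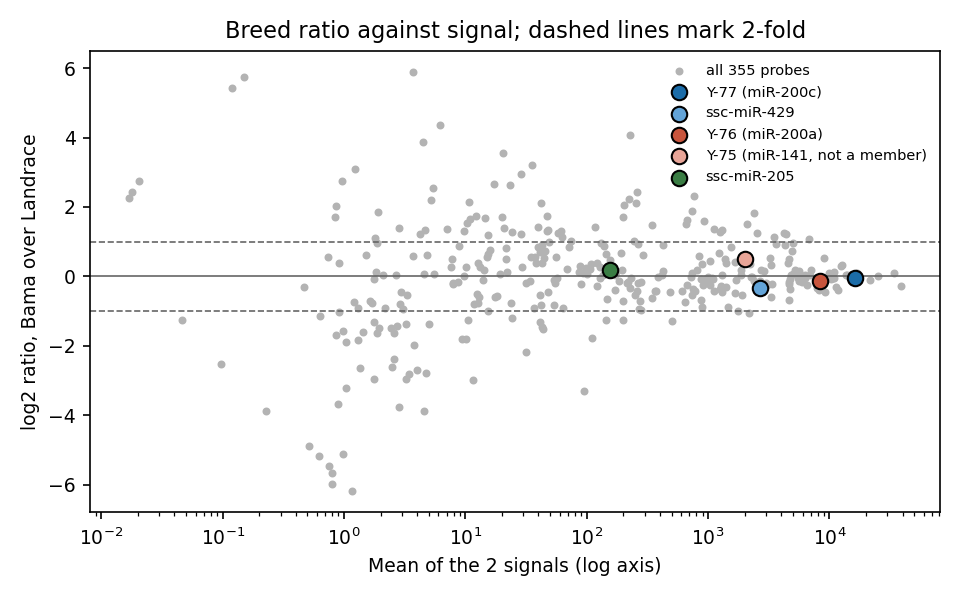
Log2 ratio of Bama over Landrace against the mean of the 2 signals (log axis) for the 355 probes (grey), with the 4 members and Y-75 in colour and dashed lines at 2-fold. The grey points fan out at low signals, and the 4 members, between -0.32 and 0.19, lie within the dashed lines.

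The members did not differ from each other by much either. From ssc-miR-429, the lowest, to ssc-miR-205, the highest, the log2 ratios spanned 0.51, and within the miR-200 family members they spanned 0.29. These spans leave out Y-75, whose miRNA, miR-141, belongs to the family but lies outside the choice of probes. From ssc-miR-429 to Y-75 the span was 0.81. A difference between ratios of probes on the same arrays does not depend on a common scaling factor. Y-77 and ssc-miR-429, which share the seed AAUACUG but are expected from different clusters, differed by 0.29. Y-75 and Y-76, which share AACACUG and are also expected from different clusters, differed by 0.62, with the miR-141 probe on the higher side. Of the probes expected from one cluster, Y-75 and Y-77, for miR-141 and miR-200c, differed by 0.52, and ssc-miR-429 and Y-76, for miR-429 and miR-200a, by 0.19. Without replicate pools, none of these differences could be set against an error.

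The shared seeds of the array give a scale for these numbers. The seed of Y-77 and ssc-miR-429 and that of Y-75 and Y-76 are counted among them throughout. Of 38 seeds carried by more than 1 probe, 14 had a mean signal of 1000 or more for every probe. In these 14 groups the span from the lowest to the highest log2 ratio ran from 0.027 to 1.80, with a median of 0.29. The span of Y-77 and ssc-miR-429 lay in the middle of these groups, where it helps to set that median, and 6 groups had a smaller one. For Y-75 and Y-76, 11 groups had a smaller span. A group with more probes can span more, so the groups of 2 probes were also viewed alone. Among those 9 pairs, 1 differed by more than Y-75 and Y-76 did, and 3 differed by more than Y-77 and ssc-miR-429.

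**Figure D3:**
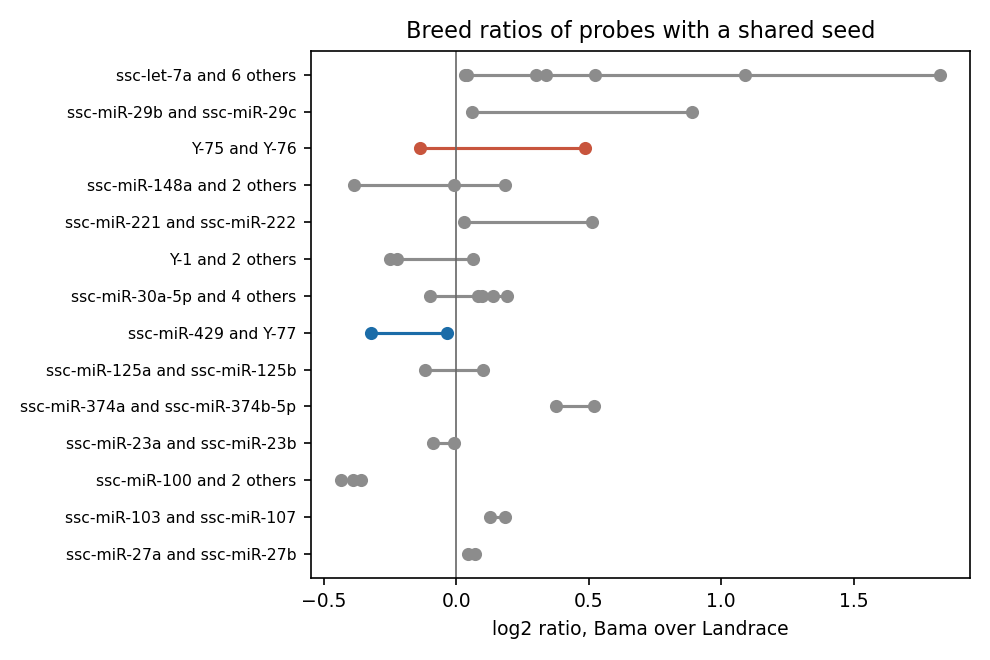
Log2 ratios of Bama over Landrace for probes that share a seed, in the 14 seed groups whose probes all had a mean signal of 1000 or more. Each point is a probe and each line joins the lowest to the highest ratio of its group, ordered by span, with Y-77 and ssc-miR-429 in blue and Y-75 and Y-76 in red. The red pair spans 0.62 across 0, and the blue pair spans 0.29 below 0.

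Base composition differed between the members. Purines made up 31.8% of the bases of ssc-miR-205, the lowest share, 45.5% of ssc-miR-429, and 60.9% of Y-77, the highest, with Y-76 between the last pair. Over the array, the median log2 ratio was -0.059 for the 67 probes under 40% purine, -0.099 for the 201 probes from 40% to below 60%, 0.38 for the 73 from 60% to below 80%, and 1.26 for the 14 of 80% or more. No member belonged to the class of 80% or more, where the median ratio was highest. Y-77 belonged to the class from 60% to below 80%, and its own log2 ratio was -0.036. The classes were not split by signal. The part of base composition in the members' ratios was not tested.

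The members' ratios also depended on how the arrays were scaled. Setting the medians of all probes equal lowered each log2 ratio by 0.26, and setting the 75th percentiles equal lowered it by 0.19. In either case the log2 ratios of the 4 members all lay below 0, from -0.59 for ssc-miR-429 to -0.078 for ssc-miR-205 with medians, and from -0.51 to -0.0014 with 75th percentiles. ssc-miR-429 kept a negative log2 ratio in each of the 7 settings, between -0.59 and -0.32, as Y-77 did, between -0.30 and -0.036. Y-76 was negative in all but quantile normalization. The number of members past 2-fold was 0 in every setting.

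**Figure D4:**
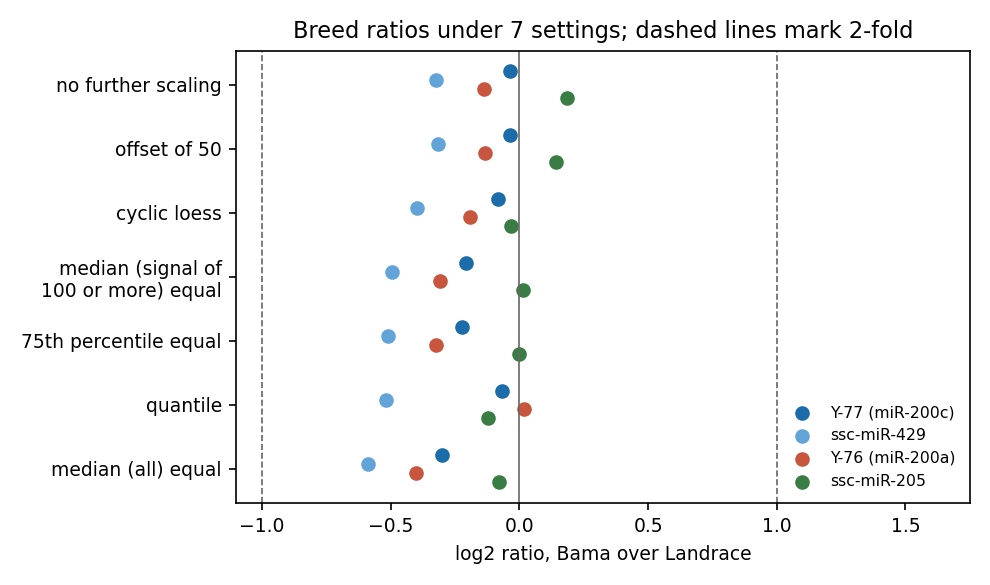
Log2 ratio of Bama over Landrace for the 4 members with the deposited values (top) and under 6 other scalings or an offset, with dashed lines at 2-fold. ssc-miR-429 and Y-77 stay below 0 throughout, Y-76 crosses 0 with quantile normalization, ssc-miR-205 lies on either side of 0, and no point reaches 2-fold.

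Markers of the tissue and of cells that a dissected pituitary can hold were read beside the members. The pituitary miRNAs were bright in both pools, with 35031 and 42831 for ssc-miR-7 and 34707 and 32765 for Y-90, listed as miR-375, in Bama minipigs and Landrace pigs. Of 6 other epithelium-enriched miRNAs, ssc-miR-192 was past 2-fold on the higher side in Bama minipigs and ssc-miR-183 and ssc-miR-194-5p on the lower side, and 3 of the 6 had mean signals below 100. The median log2 ratio of these 6, which include Y-75, was 0.38. Of 9 stromal probes, 8 had the lower signal in Bama minipigs and 4 of them, ssc-miR-143-3p, ssc-miR-143-5p, ssc-miR-199a* and ssc-miR-199b, by 2-fold or more. Among these 4, ssc-miR-143-5p had a mean signal of 5.06. The 9 probes include several forms of miR-199 and both arms of miR-143, so they are not 9 separate miRNAs. The log2 ratio was -0.16 for ssc-miR-145 and 0.19 for ssc-miR-214. The summed signal of the 9 was 11802 in the Bama minipig pool and 16994 in the Landrace pool. Of these sums, ssc-miR-145 gave 5602 and 6266.

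Of 7 striated muscle miRNAs, 4 were 2-fold or more higher in Bama minipigs (ssc-miR-1, ssc-miR-133a-3p, ssc-miR-133a-5p and ssc-miR-133b) and 2 lower (ssc-miR-206 and ssc-miR-208b). The mean signals of ssc-miR-133a-5p and ssc-miR-208b were only 4.51 and 2.56. The summed signal of the 7 was 1537 in the Bama minipig pool and 660.3 in the Landrace pool. Of 5 blood miRNAs, ssc-miR-142-3p was past 2-fold, on the lower side in Bama minipigs and with a mean signal near 1, and the summed signals were 5497 and 6026. Of 6 neural and posterior lobe miRNAs, ssc-miR-124a and ssc-miR-338 were 2-fold or more higher in Bama minipigs and ssc-miR-219 lower, with summed signals of 4115 and 3140. Of the 6, 3 had mean signals below 100, ssc-miR-124a and ssc-miR-219 among them. Y-74 (miR-137) gave 3682 and 2931 of the neural sums, and ssc-miR-451 gave 5286 and 5841 of the blood sums. Sums add probes that bind differently and are not amounts of a tissue. Beside the counts of all lists, 34.6% of the 355 probes were past 2-fold, and 93 of the 173 with a mean signal of 100 or below. The share of each tissue in the members' signals was not tested.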

How the data were processed

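Anterior pituitary RNA of 1 pool of 3 pigs per breed was tailed, tagged, hybridized to a custom microfluidic chip and stained with Cy5. The authors subtracted the background and normalized the signals with a LOWESS filter, and deposited 1 signal intensity per probe and array, not in logarithms. Detection calls, spot spreads and p-values of the study were not used.

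Ratios were computed as log2 of Bama over Landrace with no further scaling, and 2-fold was used as a rule of size. With 1 array per breed no test was run. All 355 probes were kept, in signal classes bounded at 100, 1000 and 10000. Mature and precursor sequences were read from the study's supplementary probe lists, and gene neighbours from RefSeq, for names only. Edits count substitutions, insertions and deletions. Alternatives were setting the medians (all probes, or those with a mean signal of 100 or more) or the 75th percentiles equal, quantile normalization, cyclic loess with 3 iterations (limma 3.58.1, R 4.3.3) and an offset of 50. For the share of probes past 2-fold, minimum mean signals of 100 and 500 were also tried. A log2 value was taken as moved beyond 0.1, a share beyond 1.5 times. The scalings, without the offset, were run on simulated arrays of probes with a mean signal of 100 or more. Lower signals were not simulated, so that run does not bear on them. Named are the members, probes that share their seed, the pituitary markers and the markers past 2-fold. Also named are ssc-miR-145, ssc-miR-451 and Y-74 for their weight in the sums, and ssc-miR-214 for its sign. The members and lists were chosen with earlier results of these data known, and the spans of shared seeds and the purine classes were added after the values were seen. Python 3.11.15, numpy 2.4.6, pandas 2.3.3 and matplotlib 3.10.9 were used.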

Additional observations from a re-analysis of the deposited data

How the results depend on the processing

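The number of members past 2-fold, 0 of 4, was the same under all 6 alternatives. Single log2 ratios moved by more than 0.1 mainly with the scaling. With the medians of all probes set equal they were -0.40 for Y-76, -0.30 for Y-77, -0.078 for ssc-miR-205 and -0.59 for ssc-miR-429, with a median over the members of -0.35. With the medians of probes of mean signal 100 or more set equal they were -0.31, -0.21, 0.015 and -0.49 in the same order, with a median of -0.26. With the 75th percentiles set equal they were -0.32, -0.22, -0.0014 and -0.51, with a median of -0.27. Quantile normalization moved Y-76 to 0.017, ssc-miR-205 to -0.12 and ssc-miR-429 to -0.52. It also moved the difference between Y-75 and Y-76 to 0.35 and that between Y-77 and ssc-miR-429 to 0.45. Cyclic loess moved ssc-miR-205 to -0.034 and the span of the members to 0.36. The share of all probes past 2-fold fell from 34.6% to 7.61% with an offset of 50 added, to 16.5% among probes with a mean signal of 100 or more and to 14.1% among those of 500 or more, since low signals were damped or left out. Setting medians or 75th percentiles equal shifts every ratio by the same amount, whereas quantile normalization and cyclic loess move each probe by its own amount, and the cause of those moves was not tested. No paired analysis was possible because each breed has 1 array. Precision is limited by the number of arrays, and no signal could be set against its background here.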
